A study of Homo sapiens with 2 samples.

Results

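The metallothionein family was examined in AsPC-1 cells, an established human pancreatic adenocarcinoma line, with and without compression. Its members were taken as every probe set whose platform gene symbol was MT1B, MT1E, MT1F, MT1G, MT1H, MT1L, MT1M, MT1X, MT2A or MT3, and 10 probe sets were found, 1 for each gene, among 16098 probe sets with a gene name (14884 genes) and 53617 probe sets in all. The cells were cultured under a collagen gel as a 3D culture, and the study asked how pancreatic cancer cells respond transcriptionally to compressive stress. The uncompressed group is 1 array of cells kept for 24 h without load, and the compressed group is 1 array of cells kept for 24 h under 2.9 mmHg. Both share the line, the medium with serum and the gel, and the line is a single tumour-derived line, so the values describe these cultures alone. With 1 array per group there is no spread between cultures, no test was possible, and each difference below is a description of these 2 arrays. The precision is limited by the number of arrays.

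Metallothioneins are small proteins rich in cysteine that bind zinc and copper through clusters of thiolates, and so buffer free zinc in the cytosol. Transcription of the MT1 genes and MT2A is induced when zinc rises, through the zinc-sensing factor MTF1, which binds metal-response elements in their promoters. Glucocorticoids, oxidants and heavy metals also induce several of these genes. MT1 and MT2A are made in most tissues, MT3 is best known from brain, and MT4 from stratified epithelium.

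The 8 MT1 sequences (7 protein-coding genes and the pseudogene MT1L) were each higher by 1.5-fold or more after compression, whereas MT2A and MT3 were not. Only the size rule parts MT1E (difference 0.61) from MT2A (0.54). Their gap of 0.07 is smaller than the disagreement between probe sets given below, and MT1E fell under 1.5-fold in some settings. Thus 8 of 10 members were at least 1.5-fold higher (0.585 on the log2 scale) and 0 were lower, against 3.76% of all 14884 genes higher and 2.83% lower by that size. At least 2-fold higher were 7 of 10 members, against 0.779% of all genes. The members were chosen with earlier results of these data known. Probes of the similar MT1 genes may also bind one another's RNA, so the 10 values are not independent. The median difference, compressed minus uncompressed on the log2 scale, was 1.42 over the members (2.67-fold) and -0.01 over all genes. All 10 differences were positive, from 0.16 for MT3 to 3.01 for MT1B, against 6590 positive of all 14884 genes.

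The regulatory sequence available for the members is shown first. Most members differed together, and the metal-response element is the best-known control sequence shared by the MT1 genes and MT2A. RefSeq promoter sequences (GRCh38.p14) were matched for 4 of the 10 members, MT1B, MT1H, MT1X and MT2A, and for MT4, a family gene outside the member list. The members MT1E, MT1F, MT1G, MT1L, MT1M and MT3 had no matched entry. The 250 bases before each annotated start are printed on the plus strand of chromosome 16, at chr16:56651636-56651885 for MT1B, chr16:56669564-56669813 for MT1H, chr16:56682220-56682469 for MT1X, chr16:56608334-56608583 for MT2A and chr16:56564823-56565072 for MT4. Capitals mark the core of the metal-response element, TGCACNC or TGCGCNC, on either strand.
MT1B: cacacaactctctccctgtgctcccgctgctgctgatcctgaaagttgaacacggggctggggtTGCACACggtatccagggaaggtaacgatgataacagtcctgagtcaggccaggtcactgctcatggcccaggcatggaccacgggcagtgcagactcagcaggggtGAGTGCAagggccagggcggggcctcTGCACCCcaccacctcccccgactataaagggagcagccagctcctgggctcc
MT1H: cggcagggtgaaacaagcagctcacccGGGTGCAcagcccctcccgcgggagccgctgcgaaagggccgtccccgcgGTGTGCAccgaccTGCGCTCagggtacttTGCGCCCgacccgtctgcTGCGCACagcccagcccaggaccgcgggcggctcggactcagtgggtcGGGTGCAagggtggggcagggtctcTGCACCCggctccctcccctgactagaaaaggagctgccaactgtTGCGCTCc
MT1X: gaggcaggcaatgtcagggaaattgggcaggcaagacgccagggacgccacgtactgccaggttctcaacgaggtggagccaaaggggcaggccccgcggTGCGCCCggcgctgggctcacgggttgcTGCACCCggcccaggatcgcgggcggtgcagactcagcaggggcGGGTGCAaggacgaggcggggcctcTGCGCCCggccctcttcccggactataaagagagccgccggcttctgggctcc
MT2A: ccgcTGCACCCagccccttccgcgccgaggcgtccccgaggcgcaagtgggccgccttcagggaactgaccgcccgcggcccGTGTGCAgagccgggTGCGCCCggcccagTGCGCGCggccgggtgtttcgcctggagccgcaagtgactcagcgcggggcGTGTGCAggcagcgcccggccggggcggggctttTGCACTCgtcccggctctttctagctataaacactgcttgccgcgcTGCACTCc
MT4: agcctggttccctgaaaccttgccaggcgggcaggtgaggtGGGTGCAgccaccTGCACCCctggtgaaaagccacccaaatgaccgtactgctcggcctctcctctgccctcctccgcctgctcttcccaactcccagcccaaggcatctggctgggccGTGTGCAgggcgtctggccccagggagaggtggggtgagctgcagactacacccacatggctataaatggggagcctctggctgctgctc

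MT1H held 8 matches to the core, MT2A 7, MT1X 4, and MT1B and MT4 3 each. Of 35114 RefSeq promoter windows of the same length, 24.8% held at least 1 match, 1.58% at least 3, 0.370% at least 4 and 0.0171% at least 8. These sequences are rich in G and C, from 62.4% in MT1B to 73.2% in MT2A against a median of 58.0% over all windows. Among the 16147 windows with at least 60% G and C, 37.7% held at least 1 match and 0.737% at least 4. All 5 sequences were thus among the 1.58% of all windows with at least 3 matches. That share was not computed for windows rich in G and C, where matches were more frequent. MT4, which was not higher in the compressed culture, held as many as MT1B.

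The places of the matches were partly shared. MT1B, MT1H and MT1X each held a forward match from -53 to -47, counted in bases before the annotated start, and MT2A held one from -54 to -48, whereas the MT4 match nearest to the start lay from -90 to -84. A reverse match lay from -78 to -72 in MT1H and MT1X, from -79 to -73 in MT1B and from -88 to -82 in MT2A. MT1H and MT2A also held a match from -8 to -2. MT1B, with 3 matches, differed by 3.01, MT1H, with 8, by 2.67, MT1X, with 4, by 1.49 and MT2A, with 7, by 0.54. A match to these letters is a description of the sequence and does not show that a factor was bound.

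Other motifs were searched on both strands. A TATA box (TATAAA) was found in MT1B, MT1X, MT2A and MT4, between -30 and -24, and in 10.7% of all windows. The GC box GGGCGG, a binding sequence of Sp1, was found in MT1B and MT1H once each and in MT1X and MT2A at 2 places each, and in 42.6% of all windows. In MT1X 1 of these GC boxes overlapped the metal-response core from -78 to -72. The AP-1 sequence TGACTCA was found in MT1B and MT2A and in 4.20% of all windows. Over the last 100 bases, aligned at the annotated start without gaps, MT1B was equal to MT1H and to MT1X at 62% of positions and MT1H to MT1X at 66%, whereas MT2A was equal to these at 33% to 34% and MT4 to the 4 members at 35% to 38%.

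**Figure D1:**
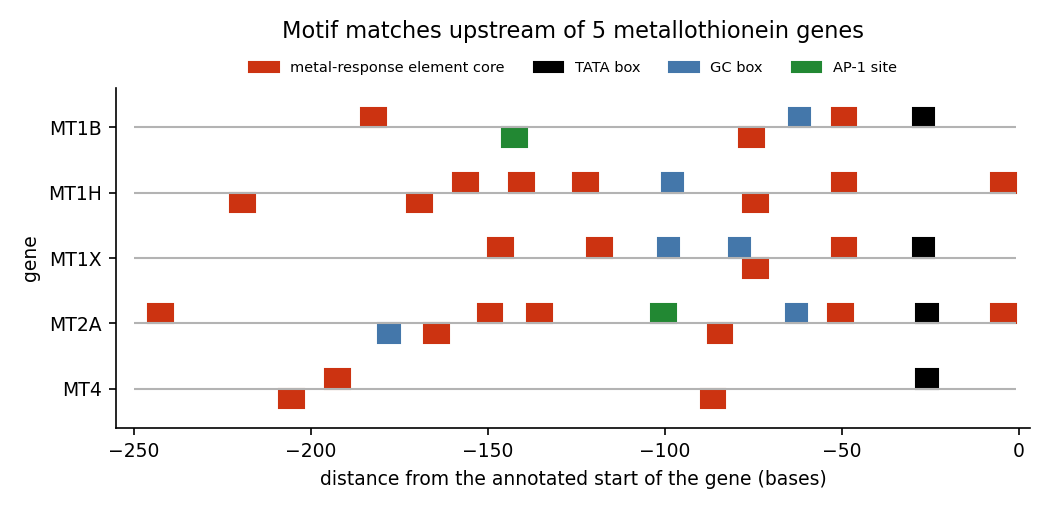
Map of motif matches in the 250 bases before the annotated start of 5 metallothionein genes; the x axis is the distance from the start in bases, boxes above a line are on the plus strand and boxes below it on the minus strand. MT1B, MT1H, MT1X and MT2A each have a metal-response core that starts at -54 or -53 and another between -88 and -72, and MT4 has none nearer than -84.

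Among the MT1 genes, the largest differences were those of MT1B and MT1H. MT1B (NM_005947, probe set 16819247) had a log2 level of 4.28 without compression and of 7.30 with it. The uncompressed level lay below the median gene level of 4.79, and whether it was above background is unknown, so no fold is given and the measured difference of 3.01 is uncertain in size. With all levels under 4.79 raised to that value, an alternative chosen after the data were seen, the MT1B difference was 2.50, below that of MT1H. MT1H (NM_005951, probe set 16819257) went from 5.25 to 7.92, a 6.37-fold higher level (difference 2.67) and the 3rd largest difference of 14884 genes. MT1L (NR_001447, probe set 16819213), which RefSeq lists as a transcribed pseudogene, read 5.35 and 7.15, 3.48-fold higher and 11th in the order of differences. These 3 sequences shared a low uncompressed level and a compressed level above 7.

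MT1G, MT1X, MT1M and MT1F formed a second set, with high levels already in the uncompressed culture. MT1G (NM_005950, probe set 16826738) read 9.67 without and 11.38 with compression, 3.26-fold higher and 16th in order. MT1X (NM_005952, probe set 16819264) read 9.84 and 11.34, 2.82-fold higher and 30th. Both were thus bright on both arrays, and their differences were well outside the interquartile range over all genes, -0.20 to 0.17. MT1M (NM_176870, probe set 16819224) read 8.88 and 10.21, a 2.53-fold higher level. MT1F (NM_005949, probe set 16819252) read 8.70 and 9.92, a 2.33-fold higher level. These 4 genes lay within a narrow band of differences, 1.22 to 1.70.

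MT1E was the MT1 gene with the smallest difference. MT1E (NM_175617, probe set 16819217) read 5.48 and 6.09, which is 1.53-fold higher (difference 0.61) and ranked 500th of 14884 genes. It lay just inside the 1.5-fold size and just outside it after loess correction (0.5795, against a size of 0.585), and lay outside it after quantile normalization repeated over named (0.55) or all probe sets (0.55), which leaves 7 of 10 members past 1.5-fold under each. Its difference was smaller than those of the other 7 MT1 sequences, which began at 1.22.

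MT2A, the gene of the second ubiquitous isoform, lay just outside the size rule. MT2A (NM_005953, probe set 16819207) read 8.75 without and 9.29 with compression, a difference of 0.54 (1.45-fold), ranked 706th. Its difference was close to that of MT1E (0.61). MT3 (NM_005954, probe set 16819202), which encodes the isoform known as a neuronal growth inhibitory factor, read 4.73 and 4.90, with the uncompressed level under the median gene level, and differed by 0.16 (rank 3816). MT4 (NM_032935, probe set 16819197), not among the members, read 5.68 and 5.34, a difference of -0.34. MT3 and MT4, the family genes best known from other tissues, were therefore the ones with the smallest and with a negative difference.

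**Figure D2:**
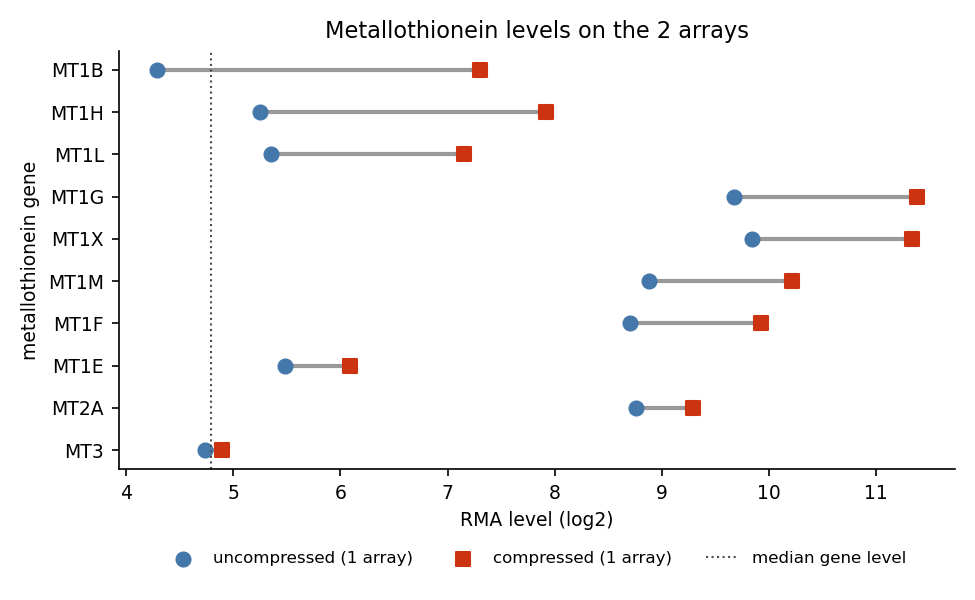
Log2 RMA level (x axis) of each of the 10 metallothionein genes (y axis) on the uncompressed array (circles) and the compressed array (squares), ordered by the difference; the dotted line is the median gene level, and there is no error bar because each group is 1 array. All 10 squares lie to the right of their circles, by 0.16 for MT3 and by 3.01 for MT1B.

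No 2 probe sets of the table carried the same pair of values as any member, so none of the 10 repeated another's signal exactly. The transcripts of the MT1 genes are highly similar, however, so probes designed for 1 gene may bind the RNA of another, and the 10 values are not independent measurements. How the signal divides among the paralogs was not tested. Each member had 1 probe set, so no second probe set checks it. Over 150 protein-coding genes with exactly 2 probe sets above the median level, the SD of a single probe set's difference was 0.185, which gives 0.262 for the gap between 2 such differences. This measures disagreement between probe sets on the same 2 arrays, not between cultures. The gaps in the order of differences were smaller than that between MT1L and MT1G (0.10), MT1G and MT1X (0.21), MT1X and MT1M (0.16), MT1M and MT1F (0.12) and MT1E and MT2A (0.07), so these neighbours have no settled order. The gaps between MT1B and MT1H (0.34), MT1H and MT1L (0.87), MT1F and MT1E (0.61) and MT2A and MT3 (0.37) were larger. A gap past 1 SD does not settle an order, and none of these gaps was compared with a spread between cultures. MT1B and MT1H changed places with low levels raised to the median gene level (2.50 and 2.67).

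The differences were not limited to dim probe sets. The members were split by uncompressed level after their values were seen. Of 5 members at a level of 8 or above (MT1F, MT1G, MT1M, MT1X and MT2A), 4 were at least 1.5-fold higher, against 3.06% of the 980 genes at such levels. Of 5 members under a level of 6 (MT1B, MT1E, MT1H, MT1L and MT3), 4 were at least 1.5-fold higher, against 4.14% of 10645 such genes. The median difference was 1.34 in the bright set and 1.80 in the dim set, while the range ran from 0.54 to 1.70 in the former and from 0.16 to 3.01 in the latter. The bright members thus differed among themselves less than the dim ones did.

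**Figure D3:**
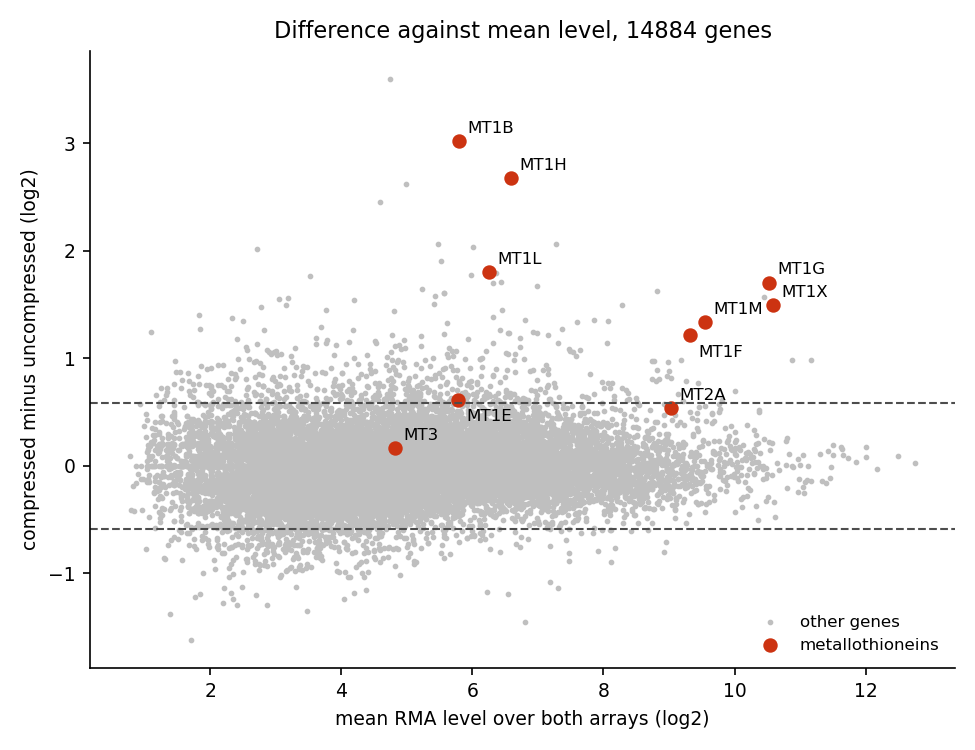
Difference compressed minus uncompressed (log2, y axis) against the mean log2 level of both arrays (x axis) for 14884 genes, with the 10 metallothioneins in red and dashed lines at 1.5-fold. MT1B, MT1H and MT1L stand above most genes at intermediate levels, MT1G, MT1X, MT1M and MT1F above most genes at high levels, and MT3 lies within the cloud.

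The members lie side by side on chromosome 16. In the RefSeq gene order of named genes, MT4 comes first, followed by MT3, MT2A, MT1L, MT1E, MT1M, MT1B, MT1F, MT1G, MT1H and MT1X, with no other named gene between them; MT1A and the pseudogenes MT1JP, MT1DP, MT1CP and MT1IP of the same interval were not analysed here. From MT1L to MT1X all 8 sequences were at least 1.5-fold higher. Of the 15 named genes on each side, 0 of 30 were at least 1.5-fold higher and 1 was lower, with a median difference of -0.06. Over all genes 3.76% were higher and 2.83% lower by that size, so the neighbours did not stand out from genes in general. The nearest named gene beyond MT4 was BBS2, a Bardet-Biedl syndrome gene (6.15 and 6.07, difference -0.07). The nearest beyond MT1X was NUP93, which encodes a nuclear pore protein (7.63 and 7.27, difference -0.36). The 1 gene lower by 1.5-fold was the pseudogene CES1P1 (3.35 and 2.56), which lay under the median gene level on both arrays.

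**Figure D4:**
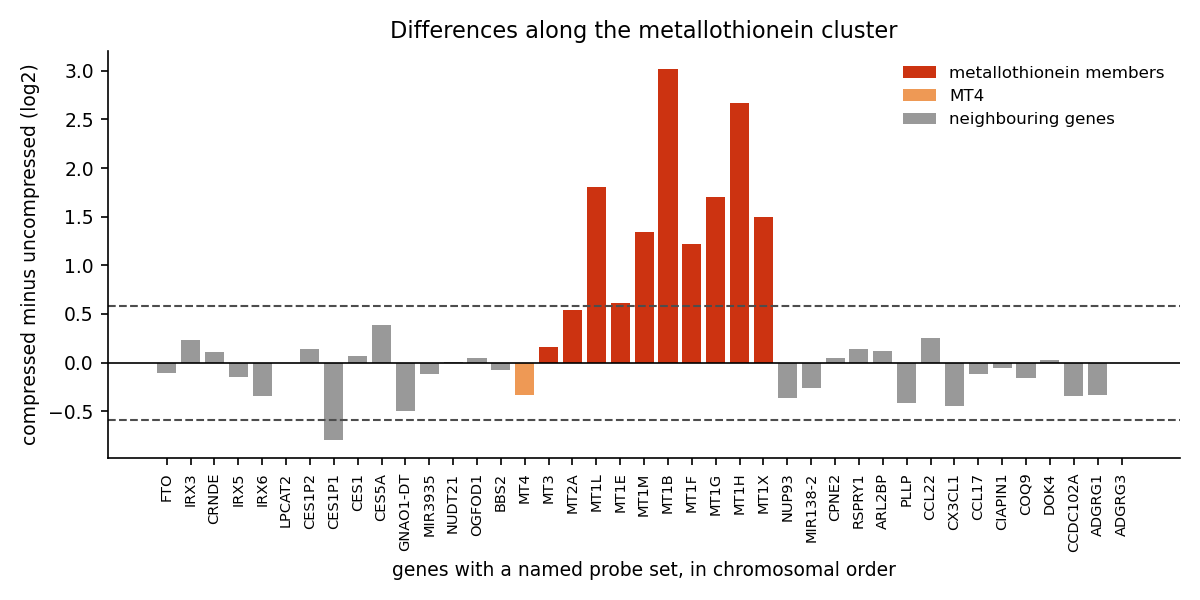
Difference compressed minus uncompressed (log2, y axis) for the 10 metallothioneins (red), MT4 (orange) and the 15 named genes on each side (grey) in chromosomal order (x axis, not to distance); dashed lines mark 1.5-fold. Bars above the upper line occur from MT1L to MT1X, and the flanking genes lie between -0.79 and 0.39.

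Genes that regulate metallothioneins or handle metals were examined as companion lists. Of 12 genes listed as regulators of metallothionein transcription, 10 had a named probe set, and 0 of these 10 passed the size in either direction. Of all genes, 3.76% were higher and 2.83% lower by that size, so a count of 0 among so few genes is not unusual. The median difference of these 10 genes was 0.30, and 8 of the 10 differences were positive. Positive differences were found for 6590 of all 14884 genes, and for 3777 of the 7442 at or above the median level. MTF1 itself, singled out here as the factor that binds the metal-response element, read 6.79 without and 7.16 with compression, a difference of 0.37. The coactivator gene CREBBP differed by 0.53, SP1 by 0.31 and TXNRD1 by 0.41. TXNRD1 encodes an enzyme, thioredoxin reductase, and is also counted in the glutathione and thioredoxin list. The genes of this list thus had mostly positive but small differences. The 24 zinc transporter genes of the SLC30 and SLC39 families were listed too, but 0 had a named probe set, so export and import of zinc were not analysed here.

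Copper and iron genes gave a mixed picture. Of 8 named copper-handling genes, 0 were past 1.5-fold, against 3.76% of all genes higher and 2.83% lower. The median difference was 0.01 (-0.04 after quantile normalization over all probe sets). SCO1 and SCO2, which deliver copper to cytochrome oxidase, differed by 0.09 and -0.07, and the assembly factor gene COX11 by -0.41. Of 9 named iron and heme genes (median difference 0.23), 1 was higher by the size rule and none was lower, against the same shares. That gene was HMOX1, which encodes the heme-degrading enzyme heme oxygenase 1 and is, like the metallothioneins, induced by heavy metals and oxidants (5.92 and 7.16, 2.35-fold). The biliverdin reductase genes BLVRB and BLVRA differed by 0.49 and 0.44, and NCOA4, the ferritin autophagy receptor gene, by 0.03.

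Among genes induced by glucocorticoids, a second class of metallothionein inducers, 2 of 12 were higher by the size rule and 0 were lower. Of all genes, 3.76% were higher and 2.83% lower by that size. The median difference was 0.11, with 8 differences positive and 4 negative, against 6590 positive and 7557 negative over all genes. The 2 higher genes were the phosphatase gene DUSP1 (6.25 and 8.31, 4.19-fold) and ERRFI1, a feedback inhibitor gene of EGFR (8.69 and 9.67, 1.98-fold). The brightest others, ANXA1, CAVIN2 and PER1, differed by 0.15, 0.08 and 0.17. Singled out here as the negative ones, ZBTB16, SGK1, FKBP5 and KLF9 differed by -0.46, -0.26, -0.23 and -0.04. All of these but FKBP5 lay under the median gene level on both arrays. Of 18 named glutathione and thioredoxin genes, 0 were past 1.5-fold, against the same shares of all genes. Their median difference was 0.00 (-0.03 after quantile normalization over named probe sets). In that list TXN, PRDX1 and PRDX3 differed by 0.07, 0.00 and -0.20.

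**Figure D5:**
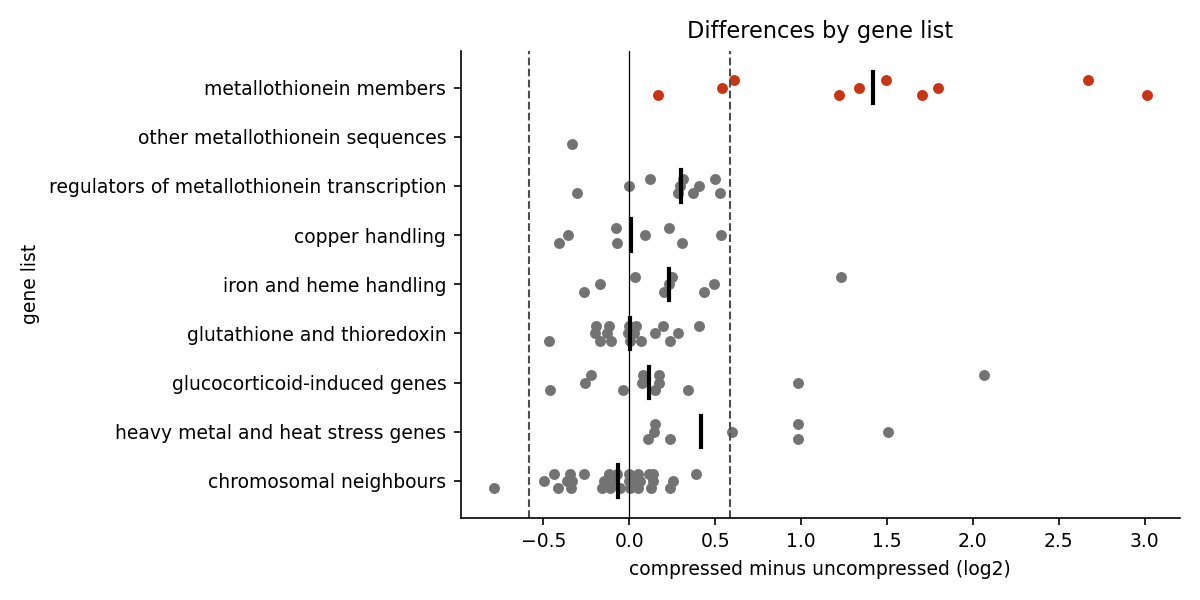
Difference compressed minus uncompressed (log2, x axis) of every named gene in the metallothionein family (red) and in 8 companion lists (grey; y axis), 1 point per gene, with a black bar at each median and dashed lines at 1.5-fold. The metallothionein median is 1.42, and the medians of the companion lists lie between -0.06 and 0.42, apart from the other metallothionein sequences, whose single point is MT4 at -0.34.

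The genes whose difference lay nearest to the members' median of 1.42 were CTSL (difference 1.38), PAQR5 (1.34), BMAL2 (1.34), INSIG1 (2.83-fold) and HSPA6 (1.51), by a rule over protein-coding genes whose mean level was at or above the median. HSPA6 read 4.66 without compression, under the median gene level, so its difference is uncertain in size. CTSL encodes the lysosomal protease cathepsin L, BMAL2 a clock transcription factor, INSIG1 an endoplasmic reticulum protein that holds back SREBP when sterols are plentiful and HSPA6 an inducible heat shock protein. Over 2 arrays this likeness is a single number per gene.

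The labelled cell type was checked against markers. Of 8 named ductal epithelial markers, KRT18 (11.54 and 11.71), CEACAM6 (10.88 and 10.87), KRT19 (10.78 and 10.79) and EPCAM (10.77 and 10.43) were bright on both arrays. KRT8 (6.13 and 6.21) and CEACAM5 (5.45 and 5.51) were dimmer, CLDN4 (4.80 and 4.73) lay at about the median gene level and KRT7 (3.36 and 3.78) under it. None of the 8 was past 1.5-fold, against 3.76% of all genes higher and 2.83% lower. Of 8 fibroblast markers 2 were named, with DCN at 1.79 and 1.82 but LUM at 9.75 and 9.39. The named endothelial (3), acinar (2) and islet (3) markers lay between 2.68 and 4.50 on both arrays. Of the 3 named leukocyte markers, CD14 read 3.65 and 3.71, LYZ 9.04 and 8.82, and CD68, a lysosomal protein gene, 8.45 and 9.26, the 1 marker past 1.5-fold. Given those shares of all genes, 1 marker past that size over all the marker sets is not unusual. The part of these genes in the metallothionein values was not tested. Both cultures were labelled as the AsPC-1 line, with no other cell type named. In bulk RNA of such a culture, a change in the number of cells in a given state and a change in RNA per cell cannot be told apart.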

How the data were processed

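Expression in 1 uncompressed and 1 compressed AsPC-1 culture was measured on a Human Gene 2.0 ST array each. The authors deposited log2 values, for which the submitters' processing notes name RMA and the Transcriptome Analysis Console; their versions and the genome build were not given in the sources read here. RMA equalises the arrays' distributions, so a change shared by all genes is removed, and differences near background are compressed. No detection calls were used. The median over all probe sets was 3.75 on the uncompressed and 3.72 on the compressed array, and the arrays correlated at 0.978 across probe sets.

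Probe sets were named from the platform annotation, and the 16098 kept were those that matched the RefSeq gene table (GRCh38.p14) by gene identifier. Any other probe set was counted as having no gene name. The brightest probe set stood for each of 779 genes with several. No coordinates of the array's own build are given. Differences were described by a size of 1.5-fold without a level filter, beside the share of all genes past that size. The members and lists were chosen with earlier results of these data known. Genes named are all members and MT4, list genes past 1.5-fold and up to 3 brightest others per list, the nearest neighbours, and the 5 genes nearest the members' median; others are said to be singled out. Alternatives were median centring, repeated quantile normalization over named or all probe sets, loess (span 0.3), the mean of probe sets, a level filter at 4.79, sizes of 2-fold and of 0.32 on the log2 scale, the mean in place of the median, leaving out MT1L, and a floor on low levels, the last chosen after seeing the data. Computations used Python 3.11.15, NumPy 2.4.6, pandas 2.3.3, statsmodels 0.14.6 and matplotlib 3.10.9.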

Additional observations from a re-analysis of the deposited data

How the results depend on the processing

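Over all settings tried, 7 to 9 of the 10 metallothioneins were past the size in use and 0 were lower. The level filter uses the mean of both arrays, which MT1B and MT3 pass only through the compressed array, so it is no check of these. The members' median difference ran from 1.32 to 1.44, and their mean difference was 1.46. MT1E alone crossed the 1.5-fold size (0.55 to 0.63), MT1B ran from 2.50 to 3.04, and the other members moved by less than 0.185. At 2-fold, 7 members, 1 glucocorticoid-induced, 1 iron and heme and 1 heat stress gene were higher, and 0 neighbours were lower. At a size of 0.32 on the log2 scale, 9 members, 4 regulators, 3 iron and heme genes, 3 glucocorticoid-induced genes, 4 heat stress genes, 1 copper gene, 1 glutathione or thioredoxin gene and 1 neighbour were higher, while 2 copper genes, 1 glutathione or thioredoxin gene, 1 glucocorticoid-induced gene and 8 neighbours were lower. With the level filter or the floor, 0 neighbours were lower. Over all genes, 560 were higher and 421 lower by 1.5-fold, against 294 and 83 with the level filter, 276 and 74 with the floor, 116 and 30 at 2-fold and 1887 and 2105 at 0.32. No paired analysis was possible because each group is 1 array. With no detection calls, the levels of MT1B and MT3 in the uncompressed culture have no known distance from background.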

Other observations

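Heat stress genes, which cadmium is known to induce beside metallothioneins, were partly higher in the compressed culture. Of 13 listed genes 8 had a named probe set, and 4 were at least 1.5-fold higher, 0 lower, against 3.76% and 2.83% of all 14884 genes, with a median difference of 0.42 on the log2 scale. HSPA1A read 10.67 without and 11.65 with compression, and HSPA1B 10.38 and 11.37, 1.98-fold higher each, by the brightest of 5 probe sets each. These near-identical genes may share probes and had the same difference, 0.98, so they may not be separate measurements. After quantile normalization over named probe sets their differences were smaller, 0.76 for HSPA1A and 0.78 for HSPA1B, and still past 1.5-fold. HSPA6, the strictly inducible family gene, read 4.66 and 6.17, with the uncompressed level under the median gene level of 4.79. BAG3, which encodes a co-chaperone, read 6.35 and 6.94, 1.51-fold higher, but its difference was under the size after loess correction (0.56) and after quantile normalization over named or all probe sets (0.53 each). HSPB1 and HSPH1 differed by 0.14 and 0.24, and HSF1, the factor that drives these genes, by 0.11. These are values of 1 array per group, without a test.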
